A study of Homo sapiens with 6 samples.

Results

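The messenger RNAs (mRNAs) of 10 human genes for microtubule-associated proteins, MAP1B, MAP1A, MAP1S, MAP2, MAP4, MAPT, DCX, DCLK1, MAP7 and MAP6, were followed through a pull-down of the long noncoding RNA CyCoNP. MAP1B was chosen by its low level in both pull-downs compared with the input, in these same libraries, and the other 9 were added as relatives by function. They are 10 of the 60676 entries of the count table and 10 of the 12565 genes with at least 10 counts over all libraries. All 10 passed that minimum.

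Every library was made from the neuroblastoma cell line SK-N-BE (human) after 1.5 days of differentiation in 10 µM retinoic acid. The CyCoNP pull-down (CyCoNP PD) used biotinylated DNA probes against CyCoNP, and the control pull-down (LacZ PD) used probes against the bacterial LacZ gene. The input was a portion of the cell extract set aside before the probes were added. Each of the 3 groups has 2 libraries of Nanopore PCR-cDNA reads, and no cross-linking was used, so an RNA could be recovered through a direct or an indirect contact, or with the beads. The groups also differ in handling, since dextran sulfate was added to both pull-downs and more PCR reactions were pooled for them than for the input. The study calls its replicates biological duplicates, and the labels do not say which libraries share an extract.

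Depth set what could be measured. Input totals were 717905 and 791970 counts. CyCoNP PD reached 1512148 and 514882, whereas LacZ PD held only 18870 and 140115. A gene with 0 counts in a library could still lie below a limit of 3 counts, which is 1.98 to 5.83 CPM (counts scaled to a common library total) in the input and CyCoNP PD libraries but 159 and 21.4 CPM in the LacZ PD libraries. CyCoNP itself, annotated as LINC02381, had 20 and 39 counts in the input but 11687 and 3507 with the CyCoNP probes, beside 1 and 20 with the LacZ probes. With TMM normalisation, a scaling of each library by the genes that most libraries share, these were 29.4 and 59.2, 9362 and 7814, and 31.6 and 142.9 CPM, so the labels match its recovery, although replicate 2 of LacZ PD also lay above both inputs. All 10 neuroblastoma markers were detected in the input, and their summed level was 2361 to 3633 CPM in the 6 libraries. The 8 markers of mesenchymal-type neuroblastoma cells summed to 513, 264 and 265 CPM in replicate 1 of input, CyCoNP PD and LacZ PD, and to 36.6, 36.9 and 57.1 CPM in replicate 2, with POSTN at 0 throughout. The 4 immune markers summed to 1.39 and 2.53 CPM in the input and to 0 in every pull-down library, with PTPRC, CD3E and LYZ at 0 throughout.

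Microtubules are polymers of tubulin that grow and shrink, and neurons need long, stable ones in their axons and dendrites. Microtubule-associated proteins (MAPs) bind along the polymer, stabilise it, space it and connect it to actin and to motor proteins. MAP1B is among the first MAPs to appear in developing neurons and is abundant in extending axons.

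The CyCoNP probes are shown because a pull-down can also recover an mRNA that pairs with a probe by itself. The 22 probes have 20 bases each, and 5 of them matched the canonical LINC02381 transcript in full (other isoforms were not searched). Each was compared, in the antisense direction, with 1 canonical transcript of each of 12528 tested genes, and the longest unbroken stretch of complementary bases was recorded, counting only Watson-Crick pairs. Below, a probe and the site with its longest stretch are both written 5′ to 3′, the paired bases are in capitals, and the site is on the coding strand of the mRNA.
CyCoNP probe 14 for MAP1B: tcaGCAGCTTTGAggctgat
MAP1B site: cctgaggTCAAAGCTGCacg
CyCoNP probe 14 for MAP1A: tcagcaGCTTTGAGGCTgat
MAP1A site: gagAGCCTCAAAGCcactac
CyCoNP probe 2 for MAP2: gggaaCTGGAGGGAGAGgtc
MAP2 site: ccaCTCTCCCTCCAGgaaat

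The paired bases of MAP1B lie in coding sequence of exon 5 at chr5:72200278-72200287 on the plus strand of GRCh38. Those of MAP1A lie in coding sequence of exon 4 at chr15:43522437-43522447, also on the plus strand, and those of MAP2 in coding sequence of exon 10 at chr2:209696966-209696977, plus strand. The longest stretch was 10 bases in MAP1B, which has 3 sites of that length, 11 in MAP1A and 12 in MAP2. A stretch of at least 10 bases was found in 56.4% of the 12528 transcripts, and in 93.5% of the 1023 transcripts of at least 8 kb. A stretch of at least 11 was found in 21.9% and 53.1% of them, and one of at least 12 in 6.18% and 18.5%. Lengths of complementarity of MAP1B, MAP1A and MAP2 were thus shared with many transcripts, and no probe paired with any of these 3 mRNAs over its whole length.

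MAP1B (ENSG00000131711, chr5:72107234-72209565, plus strand, canonical transcript of 11790 bases) had the highest level of the 10 mRNAs in input and the largest deficit of them in CyCoNP PD. Its counts were 2486 and 2314 in input, 918 and 236 in CyCoNP PD, beside 8 and 29 in LacZ PD. With TMM normalisation these counts were 3657 and 3511 CPM in input, 735 and 526 CPM in CyCoNP PD, with 253 and 207 CPM in LacZ PD. On this scale both pull-down groups lay below both input libraries, and both CyCoNP PD libraries lay above both LacZ PD libraries. The means were 3584 ± 103 CPM in input, 631 ± 148 CPM in CyCoNP PD and 230.0 ± 32.2 CPM in LacZ PD (SD, n = 2 each). On the scale of library totals the order held. CyCoNP PD was at 607 and 458 CPM there, and LacZ PD at 424 and 207 CPM. The interval for counting error of LacZ PD replicate 1, from 8 counts, was 215 to 836 CPM. It spans both CyCoNP PD values, so the order of that library against CyCoNP PD was not settled. The interval of LacZ PD replicate 2, 144 to 297 CPM, lay below both.

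The fitted log2 fold change of MAP1B was -2.51 (SE 0.65) in CyCoNP PD against input, a 5.68-fold lower level. In LacZ PD against input it was -3.98 (SE 0.73), or 15.8-fold lower, and in CyCoNP PD against LacZ PD it was 1.48 (SE 0.67). MAP1B was picked for these differences, so they are given as a description with no test. Both pull-downs were compared with the same 2 input libraries. Within replicate 1 the level in CyCoNP PD was 4.97-fold below the input, and within replicate 2 it was 6.68-fold below. The corresponding values for LacZ PD were 14.5-fold and 16.9-fold.

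The size of the deficit can be placed among all genes. In CyCoNP PD against input, MAP1B ranked 178 from the lowest of 12565 log2 fold changes, and 17 from the lowest of the 1623 genes with at least 100 CPM in the input, whose median was -0.15. In LacZ PD it ranked 32 from the lowest of the same 1623 genes, with a median of -0.54, and 2672 from the lowest of all 12565. Of the 2671 genes below it there, 2645 had 0 counts in both LacZ PD libraries, where the fitted value depends on a prior count. The low ranks of MAP1B in both pull-downs repeat the low level by which it was chosen and are a description. The 1623 genes were kept by their input level alone, which is also the level that each fold change was set against.

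**Figure D1:**
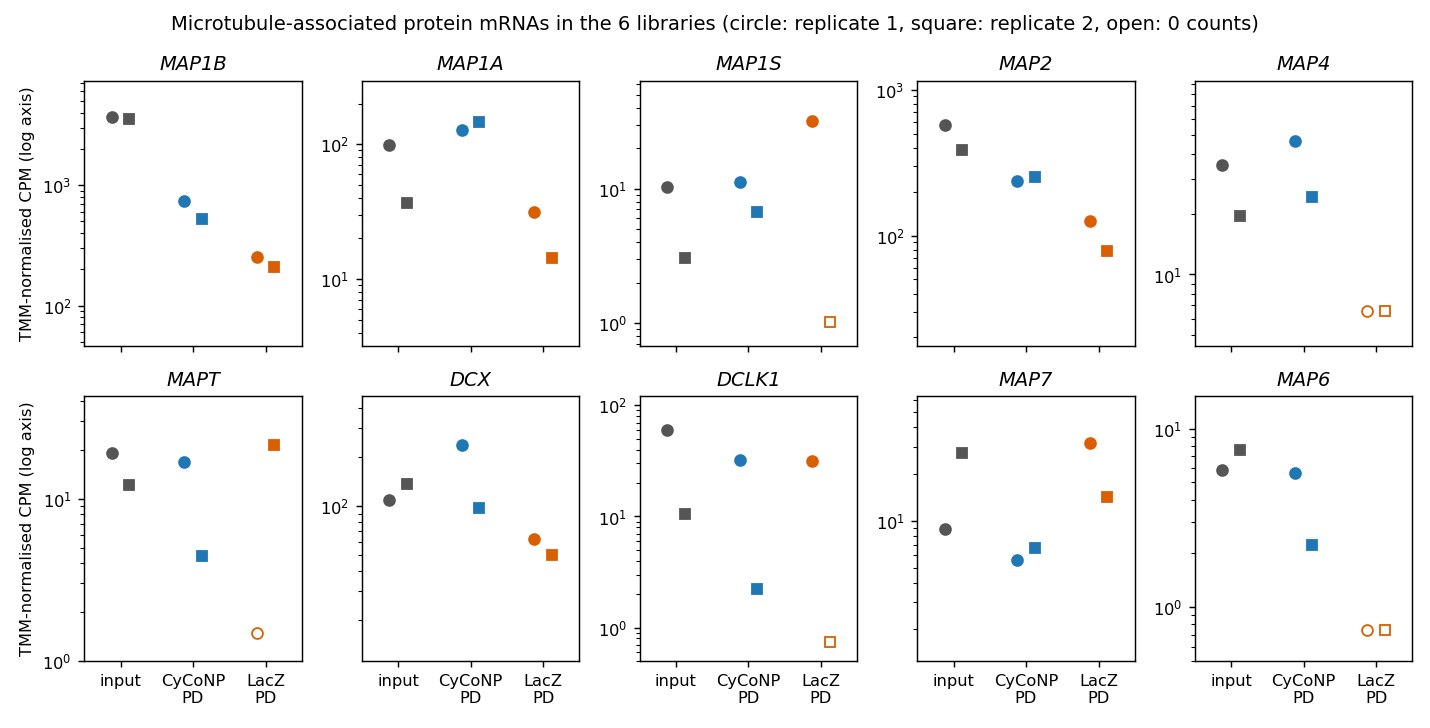
TMM-normalised CPM (log axis, a separate scale for each gene) of the 10 mRNAs in input, CyCoNP PD and LacZ PD, with circles for replicate 1, squares for replicate 2 and open symbols at the foot for 0 counts. MAP1B stands at 3657 and 3511 CPM in input and 735 and 526 in CyCoNP PD, against 253 and 207 in LacZ PD, while MAP1A has its highest levels, 127 and 147 CPM, in CyCoNP PD.

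MAP1A (ENSG00000166963, chr15:43510958-43531620, plus strand, 10266 bases) encodes the relative of MAP1B that takes over in mature dendrites. It had 67 and 24 counts in input, 159 and 66 in CyCoNP PD, beside 1 and 2 in LacZ PD, which gave 98.5 and 36.4, 127 and 147, and 31.6 and 14.3 TMM-normalised CPM. On this scale both CyCoNP PD libraries were above both input libraries, and both LacZ PD libraries were below them. On the scale of library totals, the 1 count of LacZ PD replicate 1 gave 53.0 CPM, above input replicate 2 at 30.3 CPM. The log2 fold change in CyCoNP PD against input was 1.02 (SE 0.66), the opposite sign to MAP1B, with an adjusted p (Benjamini-Hochberg) of 0.9996 by edgeR's quasi-likelihood test. Within replicate 1 the level was 1.29-fold above input and within replicate 2 it was 4.04-fold above. The 3 counts in LacZ PD gave a ratio to input of 0.313 on pooled counts, with a 95% interval for counting error of 0.0634 to 0.944. Against LacZ PD the level in CyCoNP PD was higher by a log2 of 2.87 (SE 0.94), with an adjusted p of 0.736 by the edgeR quasi-likelihood test.

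MAP1S (ENSG00000130479, chr19:17719242-17734513, plus strand, 3288 bases), the short and broadly expressed member of the MAP1 family, was near the limit of detection. It had 7 and 2 counts in input, 14 and 3 in CyCoNP PD, with 1 and 0 in LacZ PD. Its libraries overlapped between all groups. The log2 fold change in CyCoNP PD against input was 0.45 (SE 1.17), and the single LacZ PD count gave a ratio to input of 1.06 with a counting interval of 0.0241 to 7.62. No difference of MAP1S was detectable at this depth.

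MAP2 (ENSG00000078018, chr2:209424047-209734147, plus strand, 9650 bases) stabilises microtubules of the cell body and dendrites. It stood second to MAP1B in level, with 390 and 255 counts in input, 296 and 113 in CyCoNP PD, against 4 and 11 in LacZ PD. The TMM-normalised levels were 574 and 387 CPM in input, 237 and 252 CPM in CyCoNP PD, beside 126 and 78.6 CPM in LacZ PD. On this scale the 3 groups did not overlap, and they stood in the same order as for MAP1B, with smaller steps. On the scale of library totals, LacZ PD replicate 1 was at 212 CPM, above CyCoNP PD replicate 1 at 196 CPM. The log2 fold change was -0.97 (SE 0.60) in CyCoNP PD against input, with an adjusted p of 0.9996 by edgeR's quasi-likelihood test.

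The LacZ PD value of MAP2 depended on the tool. Its log2 fold change against input was -2.32 (SE 0.69) with an adjusted p of 0.551 by the edgeR quasi-likelihood test. DESeq2 gave -2.29 with an adjusted p of 0.0233, and called 0.422% of all genes lower in that comparison. With the replicate number as a block, DESeq2 gave -2.23 with an adjusted p of 0.0169 and called 0.565% of all genes lower, and edgeR gave an adjusted p of 0.0590. Among the 9 other mRNAs, MAP2 alone was called in any setting run, in LacZ PD against input and with DESeq2. Over the 14 alternative settings its adjusted p ran from 0.0169 to 0.814.

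MAP4 (ENSG00000047849, chr3:47850690-48089272, minus strand, 9232 bases) is the MAP of most non-neuronal and dividing cells. It had 24 and 13 counts in input, 58 and 11 in CyCoNP PD, with 0 in both LacZ PD libraries. The input and CyCoNP PD libraries overlapped, at 35.3 and 19.7 against 46.5 and 24.5 TMM-normalised CPM, with a log2 fold change of 0.39 (SE 0.71). A limit of 3 counts over both LacZ PD libraries is 18.9 CPM. On pooled counts the input level was 1.30-fold above that limit, and the CyCoNP PD level 1.80-fold above it. These folds leave out the counting error of the input and CyCoNP PD. The counting interval of the LacZ PD ratio to input was 0 to 0.996, so its upper end was close to no difference. That of the CyCoNP PD ratio to LacZ PD began at 1.43 and had no upper end.

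MAPT (ENSG00000186868, chr17:45894527-46028334, plus strand, 6815 bases) encodes tau, the main MAP of mature axons. It had 13 and 8 counts in input, 21 and 2 in CyCoNP PD, against 0 and 3 in LacZ PD, and the groups overlapped. The log2 fold change in CyCoNP PD against input was -0.44 (SE 0.91), and the 3 LacZ PD counts gave a ratio to input of 1.36 with a counting interval of 0.259 to 4.54. MAP6 (ENSG00000171533, chr11:75586918-75669038, minus strand, 3252 bases), which protects microtubules against cold, had 4 and 5 counts in input, 7 and 1 in CyCoNP PD, beside 0 in LacZ PD. Its CyCoNP PD libraries, at 5.61 and 2.23 TMM-normalised CPM, lay below the input libraries at 5.88 and 7.59, with a log2 fold change of -0.64 (SE 1.25). Its input level was below the LacZ PD limit, so no fold is given there.

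DCX (ENSG00000077279, chrX:111293779-111412429, minus strand, 9086 bases) encodes doublecortin, a MAP of migrating young neurons. It had 74 and 90 counts in input, 295 and 44 in CyCoNP PD, with 2 and 7 in LacZ PD. Its TMM-normalised levels were 109 and 137 CPM in input, 236 and 98.0 CPM in CyCoNP PD, against 63.2 and 50.0 CPM in LacZ PD. The 2 CyCoNP PD libraries lay on opposite sides of the input, so the log2 fold change of 0.45 (SE 0.63) rested on replicate 1 and was -0.30 without it. On this scale both LacZ PD libraries were below every other library. The log2 fold change against input was -1.17 (SE 0.77), with an adjusted p of 0.764 by the edgeR quasi-likelihood test. On the scale of library totals, the 2 counts of LacZ PD replicate 1 gave 106 CPM, above input replicate 1 at 103 CPM and CyCoNP PD replicate 2 at 85.5 CPM.

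DCLK1 (ENSG00000133083, chr13:35768652-36131382, minus strand, 8394 bases) joins a doublecortin-like microtubule-binding part to a protein kinase. It had 41 and 7 counts in input, 40 and 1 in CyCoNP PD, beside 1 and 0 in LacZ PD. In input and CyCoNP PD its levels separated the replicate numbers rather than the groups. They were 60.3 and 32.0 TMM-normalised CPM in replicate 1, and 10.6 and 2.23 in replicate 2. The LacZ PD values of 31.6 and 0 CPM came from 1 and 0 counts, so no order between those libraries was measured. The summed level of the mesenchymal-type markers was higher in every replicate 1 library than in any replicate 2 library. COL1A1 and COL1A2 made up most of that sum in replicate 1, while TWIST1 and SNAI2 of the same list were higher in replicate 2 of both pull-downs. The part of those markers in the DCLK1 values was not tested. The log2 fold change in CyCoNP PD against input was -0.91 (SE 1.02), and the single LacZ PD count gave a ratio to input of 0.198 with a counting interval of 0.00491 to 1.16.

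MAP7 (ENSG00000135525, chr6:136342281-136550819, minus strand, 3758 bases) binds microtubules and recruits the motor kinesin-1. It had 6 and 18 counts in input, 7 and 3 in CyCoNP PD, with 1 and 2 in LacZ PD. Both CyCoNP PD libraries, at 5.61 and 6.68 TMM-normalised CPM, were below the input at 8.83 and 27.3, with a log2 fold change of -1.54 (SE 0.94) and an adjusted p of 0.9996 by edgeR's quasi-likelihood test. The size rested on input replicate 2, without which the log2 fold change was -0.53. The 3 LacZ PD counts gave a ratio to input of 1.19 with a counting interval of 0.229 to 3.91.

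Among the 9 mRNAs other than MAP1B, edgeR called 0 in each of the 3 comparisons, where a call needs an adjusted p under 0.05 together with a log2 fold change beyond 1 in size. Over all genes it called 0.00796% lower and 0.119% higher in CyCoNP PD against input, and 0% in either direction in LacZ PD against input and in CyCoNP PD against LacZ PD. At an unadjusted p under 0.05, the 9 mRNAs gave 0 in CyCoNP PD against input. They gave 2 lower in LacZ PD against input (MAP2 and MAP4) and 2 higher in CyCoNP PD against LacZ PD (MAP1A and MAP4). The same limit held for 2.32% of all genes lower and 3.08% higher in the first comparison, 6.28% and 0.74% in the next, and 0.462% and 4.74% in the last. MAP4 had 0 counts in both LacZ PD libraries, where the fitted value depends on a prior count. DESeq2 called 0, 1 and 0 of the 9 in the same order. Over all genes it called 0.111% lower and 0.462% higher in CyCoNP PD against input, 0.422% and 0.0478% in LacZ PD against input, and 0.0159% and 0.287% in CyCoNP PD against LacZ PD.

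Separation of libraries, here on TMM-normalised CPM, is a weaker description and depends on the scaling. Of the 9, 3 (MAP2, MAP7 and MAP6) had both CyCoNP PD libraries below both input libraries, against 18.6% of all genes, and 1 (MAP1A) had both above, against 17.2%. In LacZ PD, the listed values of 5 (MAP1A, MAP2, MAP4, DCX and MAP6) were below the input, against 39.9% of all genes, and 0 were above, against 5.75%. Between the pull-downs, those of the same 5 were higher in CyCoNP PD, against 35.9%, and 1 (MAP7) was lower, against 4.25%. These counts take 0 as a value. Among the 5, MAP4 and MAP6 had 0 counts in both LacZ PD libraries, as had 2593 of the 5015 genes below the input there. For MAP6, whose other levels were all under the LacZ PD limit, no order against LacZ PD was measured. For MAP4, every other level was under the 159 CPM limit of LacZ PD replicate 1. Its levels of 16.41 CPM in input replicate 2 and 21.36 CPM in CyCoNP PD replicate 2 were also under the 21.41 CPM limit of LacZ PD replicate 2. The order of MAP4 library by library was thus not measured either. The median log2 fold change of the 9 was -0.44 in CyCoNP PD against input, beside -0.01 over all genes tested. In LacZ PD against input it was -1.85 beside -0.68, or -0.78 beside -0.21 with genes at 0 counts set at their bounds.

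**Figure D2:**
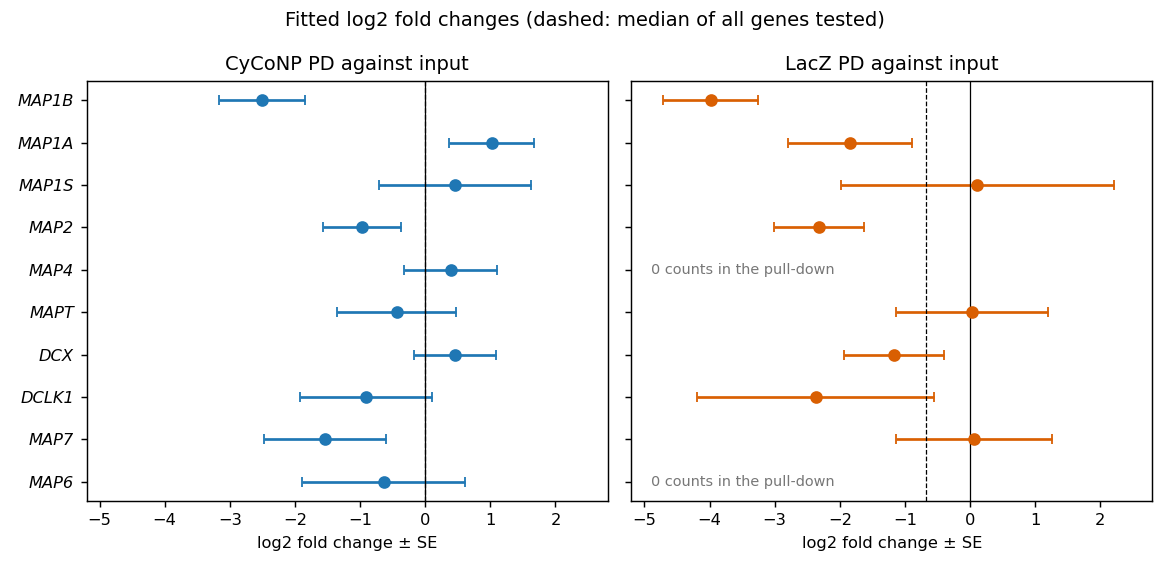
Fitted log2 fold change with its standard error for the 10 mRNAs in CyCoNP PD against input (left) and LacZ PD against input (right), with a dashed line at the median of all genes tested. MAP4 and MAP6, with 0 counts in LacZ PD, have a note in place of a point on the right. MAP1B is lowest in CyCoNP PD at -2.51 and stands at -3.98 in LacZ PD, and MAP1A is at 1.02 in CyCoNP PD and -1.85 in LacZ PD.

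Counts within 1 library share its depth and scaling, so the balance of the 10 mRNAs can be read without normalisation. MAP1B held 79.9% and 84.6% of their summed counts in input, 50.6% and 49.2% in CyCoNP PD, against 44.4% and 53.7% in LacZ PD, the last from sums of only 18 and 54 counts. The other 9 together stood at 872 and 533 CPM in input, 593 and 474 CPM in CyCoNP PD, beside 530 and 178 CPM in LacZ PD, on the scale of library totals. MAP1B was therefore a smaller share of the group in every pull-down library than in either input library.

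For every 100 counts of MAP1B, MAP1A had 2.70 and 1.04 in input, 17.3 and 28.0 in CyCoNP PD, with 12.5 and 6.90 in LacZ PD. MAP2 had 15.7 and 11.02 in input, 32.2 and 47.9 in CyCoNP PD, against 50.0 and 37.9 in LacZ PD. DCX had 2.98 and 3.89 in input, 32.1 and 18.6 in CyCoNP PD, beside 25.0 and 24.1 in LacZ PD. All 3 ratios to MAP1B were higher in each of the 4 pull-down libraries than in both inputs, and only for MAP1A were both CyCoNP PD values above both LacZ PD values. MAP1B enters each ratio, so these values repeat its deficit and are a description.

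**Figure D3:**
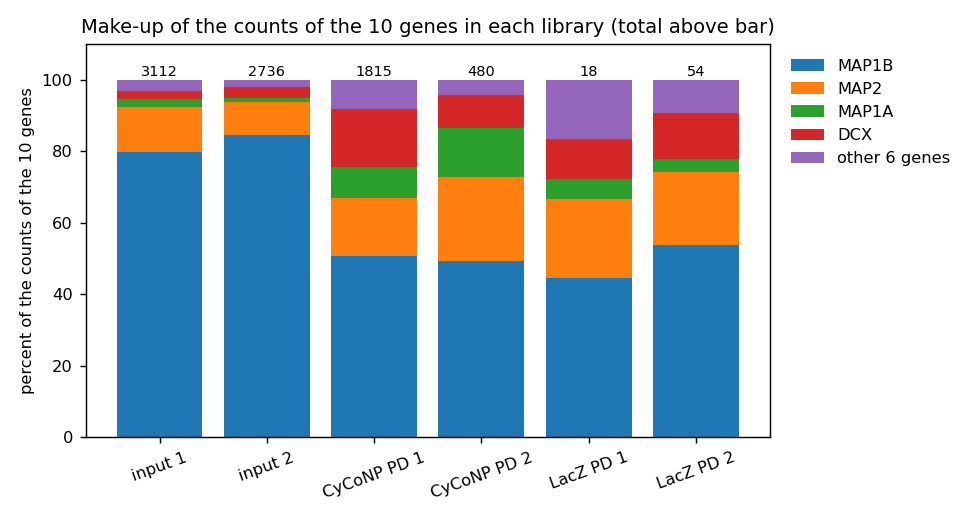
Percent of the summed counts of the 10 genes held by MAP1B, MAP2, MAP1A, DCX and the other 6 genes in each library, with the sum above each bar. MAP1B holds 79.9% and 84.6% of the counts in input and between 44.4% and 53.7% in the pull-down libraries.

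The mean TMM-normalised level in input was 3584 CPM for MAP1B, 480 for MAP2, 123 for DCX and 67.5 for MAP1A, and the remaining 6 lay between 6.67 and 35.5. In CyCoNP PD the order began with MAP1B at 631, MAP2 at 244, DCX at 167 and MAP1A at 137 CPM. The 2 CyCoNP PD libraries of DCX spanned the level of MAP1A, so those neighbours did not differ beyond their spread. In replicate 1 of CyCoNP PD, DCX at 236 CPM was also close to MAP2 at 237 CPM. Reads were counted per gene, and division by transcript length kept the order of these 4 in both groups but changed others. MAP4 and MAP7 stood at 27.5 and 18.1 CPM in input, but at 2.98 and 4.81 CPM per kb. For the levels in input, fewer cells expressing a gene and less RNA per cell cannot be told apart in these bulk samples.

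Over all tested genes and from 1 kb upward, the median log2 fold change was lower in each class of longer transcripts, in both pull-downs. Among the 1023 tested genes with a transcript of at least 8 kb, the median log2 fold change in CyCoNP PD against input was -0.34, and among 2323 genes of 1 to 2 kb it was 0.38. The same medians in LacZ PD were -1.44 and 0.02. Transcripts under 1 kb did not continue that order, with 0.12 in CyCoNP PD and -0.65 in LacZ PD. In CyCoNP PD, 15 of the 1023 long genes, MAP1B included, were at or below its -2.51. In LacZ PD, 269 of them were at or below its -3.98, and 261 of these had 0 counts there. Among genes with a mean of at least 100 CPM over the 6 libraries, the order stopped at 8 kb in CyCoNP PD. Their medians there were -0.22 at 4 to 8 kb and -0.19 at 8 kb or more, and in LacZ PD they were -0.83 and -0.96. Of the 80 such genes of at least 8 kb, only MAP1B itself was at or below its value in CyCoNP PD. In LacZ PD 3 were, MAP1B included. Of the long members, MAP2 was at -0.97 and DCLK1 at -0.91, but MAP1A, DCX and MAP4 were at 1.02, 0.45 and 0.39. The part of transcript length in the MAP1B values was not tested.

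**Figure D4:**
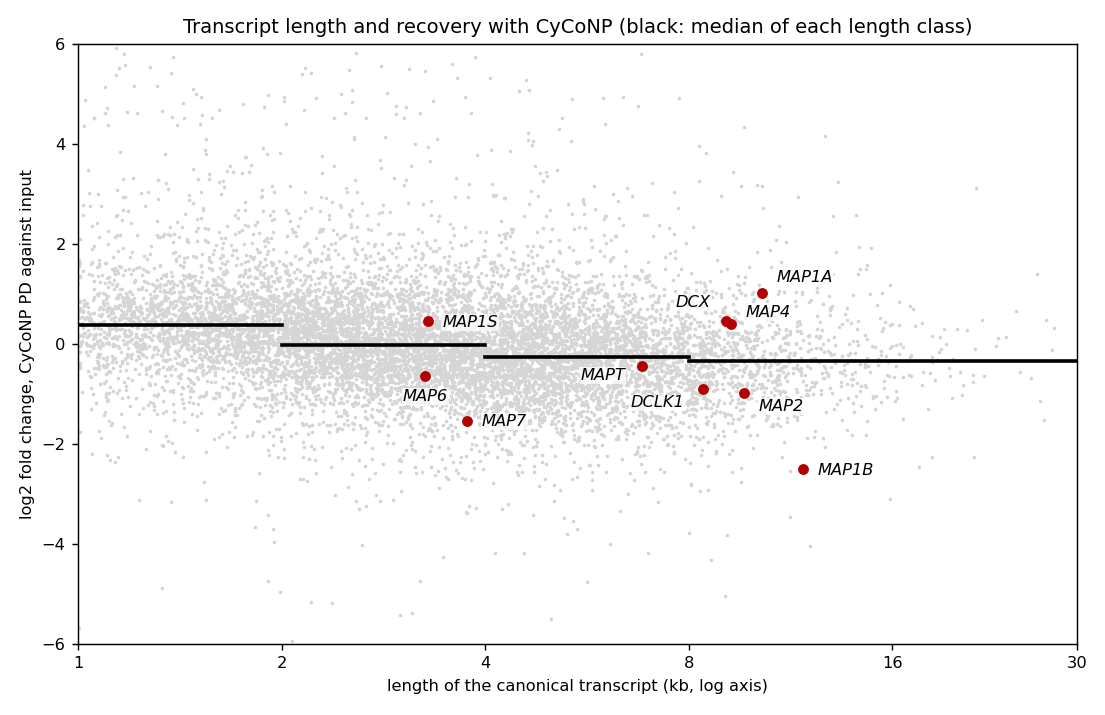
Log2 fold change in CyCoNP PD against input over the length of the canonical transcript (kb, log axis) for the tested genes between 1 and 30 kb and between -6 and 6 on the log2 axis (grey, others not drawn), the 10 genes (red) and the median of each length class (black bars). The class medians run from 0.38 at 1 to 2 kb to -0.34 at 8 kb or more, and MAP1B lies at -2.51 while MAP1A lies at 1.02.

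The genes whose pattern over the 6 libraries was most like that of MAP1B were sought among 1622 genes with at least 100 CPM in the input, by the root mean square difference of log2 levels after each gene was centred on its own mean. The nearest were G3BP2 at 0.455, which encodes a stress granule protein, DDX10 at 0.508, an RNA helicase, and YWHAB at 0.523, a 14-3-3 protein. The pseudogenes EEF1B2P2 and EEF1B2P6 stood at 0.516 and 0.525, and their counts are uncertain because they are near-identical to other copies. YWHAB, the best counted of these, had 2839 and 2324 counts in input, 2103 and 380 in CyCoNP PD, with 19 and 74 in LacZ PD. Of the other microtubule-associated mRNAs, MAP2 stood at 0.825 and DCX at 1.37. MAP4 and MAP6, with 0 counts in LacZ PD, were not placed in this order.

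The wider microtubule machinery was described with a list of 128 genes in 9 groups, of which 115 were tested. edgeR called 0 of the 115 in each comparison. At an unadjusted p under 0.05 the list had 1 lower and 4 higher in CyCoNP PD against input, 11 lower and 0 higher in LacZ PD against input, and 0 lower and 4 higher in CyCoNP PD against LacZ PD. The corresponding counts over all 12565 genes were 291 and 387, 789 and 93, and 58 and 595. DESeq2 called 0, 0 and 1. The median log2 fold change of the list in CyCoNP PD against input was -0.06, beside -0.01 over all genes, and in LacZ PD it was -1.002 beside -0.68. With genes at 0 counts in LacZ PD set at their bounds, the last pair was -0.75 and -0.21. Both CyCoNP PD libraries lay below both input libraries for 25 genes (21.7%) and above them for 18, against the 18.6% and 17.2% of all genes given above. Both LacZ PD libraries lay below the input for 62 (53.9%), against 39.9% of all genes, and both CyCoNP PD libraries lay above LacZ PD for 52 (45.2%), against 35.9%. Of these, 23 and 22 had 0 counts in both LacZ PD libraries.

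In CyCoNP PD against input, the medians of the 9 groups ran from -0.41 to 0.20. The 20 subunits of dynein and dynactin, the motor that moves cargo toward the cell body, had a median of 0.12, with DYNLL1 at -0.11 (SE 0.69) and DYNLT1 at 0.36 (SE 0.65). The 19 kinesins tested, motors that mostly move the other way, had a median of -0.12, with KIF21A at -0.77 (SE 0.67) and KIF5B at -0.12 (SE 0.69). The 4 stathmins, which bind free tubulin, had a median of 0.20, with STMN2 at 0.21 (SE 0.63) and STMN3 at -1.09 (SE 0.60). The 17 mitotic spindle MAPs had a median of -0.21, with PRC1 at -0.35 (SE 0.61) and NUSAP1 at -0.37 (SE 0.62), and the 6 severing enzymes one of -0.41, with KATNAL1 at -1.41 (SE 0.84) and KATNA1 at 0.76 (SE 0.74). The 15 other structural MAPs had a median of 0.11, with EML4 at -0.83 (SE 0.63) and MAP1LC3B, the autophagy protein first found as a light chain of MAP1, at 0.70 (SE 0.61). The 10 kinases of MAPs had a median of 0.07, with GSK3B at -0.33 (SE 0.76) and MAPK9 at -0.06 (SE 0.76), of which GSK3B is a known kinase of MAP1B and tau.

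The plus-end proteins, which ride on growing microtubule tips, had a median of -0.03 over 15 genes and contained MAPRE3, the gene of the end-binding protein EB3. MAPRE3 had 89 and 187 counts in input, 834 and 484 in CyCoNP PD, against 4 and 15 in LacZ PD, or 131 and 284, 668 and 1078, and 126 and 107 TMM-normalised CPM. Both CyCoNP PD libraries were above every other library. The log2 fold change was 2.07 (SE 0.65, adjusted p 0.468 by edgeR's quasi-likelihood test) against input and 2.93 (SE 0.73, adjusted p 0.350) against LacZ PD. With the replicate number as a block, edgeR called both, at 2.12 with an adjusted p of 0.0104 and at 3.04 with an adjusted p of 0.00330, where the block called 1.53% and 0.724% of all genes higher. DESeq2 with the block called both too, with adjusted p of 0.000954 and 0.000192, and called 0.692% and 0.414% of all genes higher. Over the 14 alternatives the adjusted p ran from 0.000954 to 1 against input and from 0.000192 to 0.887 against LacZ PD. The longest stretch of MAPRE3 complementary to a CyCoNP probe was 11 bases, with probe 13 in its 3′ untranslated region. A stretch of at least 11 was found in 21.9% of the 12528 transcripts. The part of such pairing in the MAPRE3 values was not tested. CLASP2, another plus-end protein, was at -1.28 (SE 0.68) in CyCoNP PD.

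CAMSAP2, which caps minus ends, had 51 and 16 counts in input, 14 and 3 in CyCoNP PD, beside 0 and 1 in LacZ PD. Its log2 fold change in CyCoNP PD against input was -2.38 (SE 0.80) with an adjusted p of 0.558 by edgeR's quasi-likelihood test, and with the block it was -2.42 with an adjusted p of 0.0270, where the block called 0.732% of all genes lower. Over the alternatives that gave one, the adjusted p of CAMSAP2 ran from 0.0270 to 1. ASPM, of the same group of 9 with a median of -0.14, was at -0.94 (SE 0.67). DCLK2, the close relative of DCLK1, was named after its values were seen. It had 2 and 3 counts in input, 47 and 36 in CyCoNP PD, with 0 and 2 in LacZ PD, with a log2 fold change against input of 3.87 (SE 0.86) and an adjusted p of 0.130 by edgeR's quasi-likelihood test. With the block its adjusted p was 0.000109 in edgeR and 0.0485 in DESeq2. edgeR also called it with no count filter, where 0.444% of all genes were called higher, and without CyCoNP PD replicate 1, where 0.687% were, and over the alternatives that gave it an adjusted p this ran from 0.000109 to 0.418. In CyCoNP PD against LacZ PD its log2 fold change was 2.36 (SE 1.07) with an adjusted p of 0.871 by edgeR's quasi-likelihood test, and none of the alternatives that gave it an adjusted p called it there. DCLK1, by contrast, had 40 and 1 counts in CyCoNP PD.

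**Figure D5:**
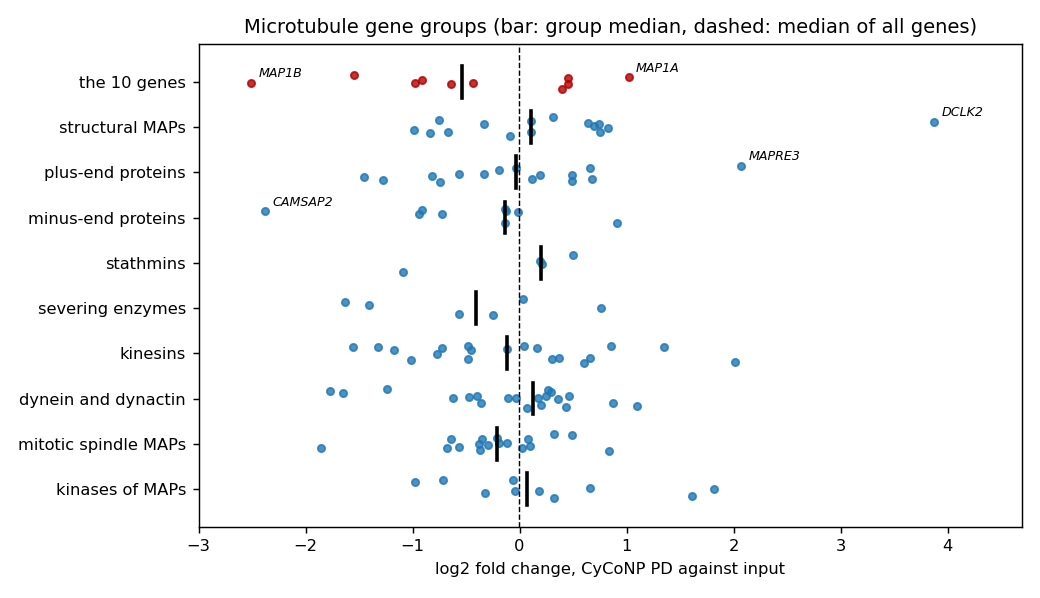
Log2 fold change in CyCoNP PD against input for the 10 genes (red) and 9 groups of other microtubule genes (blue), with a black bar at each group's median and a dashed line at the median of all genes. The group medians run from -0.41 to 0.20, and MAP1B lies at -2.51, CAMSAP2 at -2.38, MAPRE3 at 2.07 and DCLK2 at 3.87.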

How the data were processed

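The authors basecalled the Nanopore reads with Guppy, kept passing reads above a length minimum, aligned them to GRCh38 with minimap2 2.24-r1122 and counted them per Ensembl gene by Bambu, without new isoforms. They deposited whole-number counts per gene, and the same values as CPM, which the authors obtained by dividing by the library total (only used as a check). The 12565 genes with at least 10 counts in total were fitted in edgeR 4.0.16 (R 4.3.3; TMM normalisation, quasi-likelihood test, all 6 libraries, Benjamini-Hochberg adjustment over all genes), calling an adjusted p under 0.05 with a log2 fold change beyond 1. DESeq2 1.42.0, other normalisations and filters, a replicate block and leaving out each library were alternatives. Standard errors were derived from the F statistic. The fit was tested on simulated data with the same spread for every gene, no replicate effect and decreases in CyCoNP PD alone. That test covers only CyCoNP PD against input and not the comparisons with LacZ PD. Positions and lengths came from GENCODE v44. Genes overlapping a member held at most 4 counts in any library. Named were the 10 members, the 2 best-expressed genes of each group, called genes and the 5 genes most like MAP1B. The members and lists were chosen with earlier results of these data known.

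Same-numbered libraries deviated together from their group means (correlations across genes of 0.449, 0.268 and 0.257), so the numbers were taken to pair them, although no source used here says that a number marks a shared extract. The main fit leaves this pairing out. In CyCoNP PD against input edgeR called 1 gene lower and 15 higher without the block, and 92 and 192 with it. P-values measure only the spread between these libraries. The reads carry no molecular identifiers, so intervals (95%) and limits of 3 counts cover counting error only.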

Additional observations from a re-analysis of the deposited data

How the results depend on the processing

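No direction of MAP1B changed under any of the 14 alternatives. Its log2 fold change in CyCoNP PD against input stayed between -2.74 and -2.29. In LacZ PD against input it was -3.46 with scaling by library size alone and -4.15 with no count filter, and in CyCoNP PD against LacZ PD it was 0.88 with library size alone. That scaling moved the median of all genes in LacZ PD against input from -0.68 to -0.34. Among the other 9 mRNAs, MAP1A and DCX then overlapped the input in LacZ PD, while MAP2 stayed below it. MAP4 and MAP6 had 0 counts in both LacZ PD libraries, so their order library by library was not measured. Of those 9, DESeq2 called 1 in LacZ PD against input (MAP2), with the replicate block too (1). For the list of 115 in CyCoNP PD against input, the count called was 1 with no filter (DCLK2), 3 with the replicate block in edgeR (CAMSAP2, DCLK2 and MAPRE3), 2 with the replicate block in DESeq2, and 0 to 1 when each library was left out, the 1 being DCLK2 without CyCoNP PD replicate 1. In CyCoNP PD against LacZ PD it was 1 with DESeq2, 1 with the replicate block in edgeR and 1 with the replicate block in DESeq2, MAPRE3 each time. The causes were not tested. The replicate block changed no other call among those 9 mRNAs and the list, and MAP1B, chosen by these differences, is given no call. MAP1S and MAP6 were dropped by the filterByExpr filter. The signs of DCX, MAP4, MAPT, DCLK1 and MAP1S in CyCoNP PD against input changed when 1 library was left out, as did others in LacZ PD, where the counts of 18870 and 140115 limit every value.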
